A study of Rattus norvegicus with 20 samples.

Results

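Skeletal muscle takes up most of the glucose that insulin clears from the blood, and in diabetes it burns more fatty acid and less glucose. Vanadyl sulfate is a vanadium salt that mimics some actions of insulin and lowers blood glucose in diabetic rodents. The comparison described here asks which muscle transcripts differed between diabetic and normal rats when both had been given vanadyl sulfate. It sets the 5 arrays of diabetic rats given vanadyl sulfate (treated diabetic) against the 5 arrays of normal rats given vanadyl sulfate (treated normal), which are 10 of the 20 arrays of the series. The other arrays are 5 of normal and 5 of diabetic rats without the compound. All 20 hold RNA from rear leg muscle of rats. How diabetes was made, which leg muscle was sampled, the dose and length of treatment, and the strain, sex and age of the rats were not stated in the labels read for this work. No label says that the 5 replicates of a group came from separate animals, so the p-values measure the spread between these samples, which may be partly technical.

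In treated rats no probe set differed between diabetic and normal muscle past an adjusted p of 0.05 (limma with Benjamini-Hochberg adjustment, 0 of 6027 tested, a background of 0%). The same fit called 110 probe sets (1.83%) between untreated diabetic and untreated normal muscle, 76 higher (1.26%) and 34 lower (0.564%). The smallest adjusted p in treated rats was 0.0784 and was shared by 12 probe sets. At an unadjusted p under 0.05 there were 1076 probe sets (17.9%), 333 higher (5.53%) and 743 lower (12.3%) in treated diabetic muscle. A comparison with no effect would be expected to give 301. The groups did not overlap for 73 probe sets that were higher (1.21%) and for 121 that were lower (2.01%) in treated diabetic muscle. For the typical probe set the standard error of the difference was 0.357 on the log2 scale. Simulated data had the same spread per probe set, independent noise and 200 changed probe sets. In them this comparison recovered 27.2% of the probe sets changed 2-fold and 79.2% of those changed 4-fold. Shifts shared by a whole array were not simulated, so recovery in the real data may differ.

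The count of 0 and the balance of directions each turned on choices. Without treated diabetic replicate 2 the count was 109 (20 higher, 89 lower), without treated diabetic replicate 4 it was 5, without treated normal replicate 4 it was 3, and without untreated normal replicate 3 it was 2. The median difference over all tested probe sets was -0.15 with the authors' scaling, 0.08 after median centring and 0.04 after quantile normalization, all on the log2 scale. The split of probe sets at an unadjusted p under 0.05 was 333 higher and 743 lower with the authors' scaling, 635 and 394 after median centring, and 476 and 499 after quantile normalization. Differences below are therefore read beside the median over all tested genes, which was -0.10 with 1 probe set per gene.

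The 3' to 5' signal ratios of the control probe sets, which rise when transcripts are degraded or copied incompletely, had higher means in treated diabetic arrays, by a difference that did not pass its test. The log2 ratio of Gapdh was 3.94, 0.13, 1.06, 0.50 and 1.31 in treated diabetic replicates 1 to 5. It was 0.68, 0.02, 0.02, 0.24 and 0.00 in treated normal replicates 1 to 5. Untreated normal replicates 1 and 3 were at 2.9 and 2.91, and the other untreated arrays at 0.03 to 1.11. Among treated arrays, treated diabetic replicate 1 was far above the rest for Gapdh, and treated diabetic replicates 2 and 4 lay inside the treated normal range. For beta-actin, treated diabetic replicate 4 was at 2.4, above all treated normal arrays (0.48 to 2.09), and treated diabetic replicate 2 was at 1.2. The mean difference was 1.20 for Gapdh and 0.89 for beta-actin, each with an exact two-sided permutation p of 0.0635 (also 0.0635 after adjustment over the 2 genes), where 5 arrays against 5 can go no lower than 0.00794. Without treated diabetic replicate 2, the array whose omission gave 109 calls, the Gapdh difference was 1.51 (exact permutation p = 0.0159), and without treated diabetic replicate 4 it was 1.42 (exact permutation p = 0.0238). Treated diabetic replicate 5 also stood apart over all probe sets, with a correlation of 0.73 to 0.85 with the other treated arrays, against 0.82 to 0.95 among the rest. The part of RNA integrity in the differences below was not tested beyond the fits that hold the ratios as covariates. In these the count of called probe sets stayed at 0, from which it could not fall. At an unadjusted p under 0.05 there were 527 probe sets with the Gapdh ratio and 540 with both ratios, in place of 1076.

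**Figure D1:**
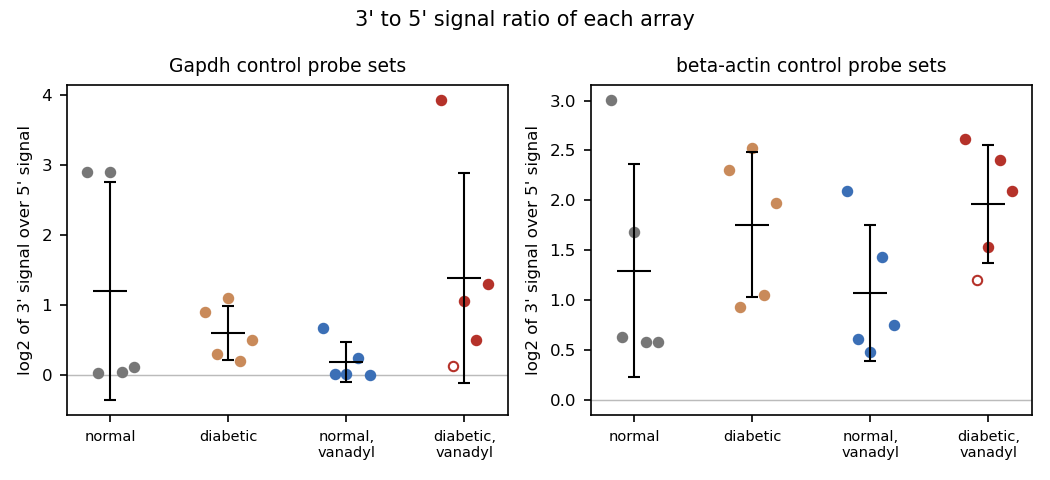
The log2 of the 3' over the 5' signal of the Gapdh and beta-actin control probe sets (vertical axes) on each array of the 4 groups (horizontal axes). Points are arrays, bars are the group mean and SD over 5 arrays, and the open point is treated diabetic replicate 2; treated diabetic replicate 1 has the highest Gapdh ratio, 3.94.

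The genes with the smallest p-values among those higher in treated diabetic muscle included a transcription factor, a glycolytic enzyme and an adhesion receptor. Stat5a, which carries growth hormone and cytokine signals to the nucleus, had log2(signal + 16) values, called log2 signals from here on, of 10.96, 9.64, 10.66, 9.77 and 10.05 in the treated diabetic arrays. In the treated normal arrays it had 8.92, 7.51, 8.01, 9.07 and 8.03. The groups did not overlap, and the difference was 1.91 ± 0.35 (SE), or 3.75-fold (unadjusted p = 2.33e-05, adjusted p = 0.0784, limma). Only 2 of the 5 treated normal arrays had Stat5a above their own 40th percentile of signal, so that its low side is close to background, and a second probe set of the gene differed by 0.52. Txnl4b, a thioredoxin-like protein of the splicing machinery, was at 11.05, 10.16, 11.01, 9.80 and 11.12 in treated diabetic and 8.89, 7.43, 8.63, 10.02 and 8.73 in treated normal arrays. Treated normal replicate 4 reached above treated diabetic replicate 4, and the difference was 1.89 ± 0.36 (adjusted p = 0.0784).

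Pgam2, the muscle form of the glycolytic enzyme phosphoglycerate mutase, was at 16.44, 15.28, 16.28, 15.06 and 16.64 in treated diabetic arrays. It was at 14.93, 14.68, 14.75, 14.91 and 13.53 in treated normal arrays, so that the groups were separate although treated normal replicate 5 lay far below its group. Its difference was 1.38 ± 0.36 (adjusted p = 0.141), and 1.12 without that array. The other genes of this direction were Hsd17b8 (1.29), a hydroxysteroid dehydrogenase, Fam219b (1.85), Alox15 (1.58), a lipoxygenase, Ptprf (1.31), a receptor tyrosine phosphatase that can act on the insulin receptor, and Itga1 (1.29), the alpha chain of a collagen-binding integrin. Klhdc3 (1.05), Ppp1r1a (1.05), an inhibitor of protein phosphatase 1, Map1lc3a (0.89), a protein of the autophagosome membrane, and Zfp775 (1.02) completed the 12. In 9 of the 12 the groups did not overlap, which was so for 1.26% of all tested genes in this direction.

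The genes with the smallest p-values among those lower in treated diabetic muscle included proteins of membrane traffic, nuclear import and ubiquitination. Vps26a, a subunit of the retromer that returns receptors from endosomes, was at 7.32, 8.14, 7.09, 8.10 and 8.09 in treated diabetic arrays and at 8.93, 9.01, 9.56, 8.82 and 10.08 in treated normal arrays. The groups were separate, with a difference of -1.53 ± 0.29 (unadjusted p = 4.34e-05, adjusted p = 0.0784), and no treated diabetic array had it above the 40th percentile. Kpnb1, importin beta 1, was at 6.19, 8.12, 7.47, 7.79 and 6.47 against 8.73, 9.48, 9.44, 8.80 and 10.76 in treated normal arrays. It too was below the 40th percentile on every treated diabetic array, and the fitted difference was -2.23 ± 0.44 (adjusted p = 0.0784). For Vps26a and Kpnb1 the level in treated diabetic muscle is too dim to give an exact fold.

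Nedd4, a ubiquitin ligase that marks membrane proteins for removal, was bright in all 10 arrays. It was at 10.20, 12.23, 11.00, 12.57 and 9.67 in treated diabetic arrays and at 12.19, 13.74, 13.67, 13.20 and 14.30 in treated normal arrays. Treated normal replicate 1 fell inside the diabetic range, and the difference was -2.29 ± 0.49, or 4.89-fold lower (adjusted p = 0.0784). Vldlr, a receptor for triglyceride-rich lipoproteins, was at 7.93, 10.12, 9.40, 9.57 and 8.16 against 10.24, 11.10, 10.82, 10.40 and 11.19. The groups were separate by a narrow margin, and the difference was -1.71 ± 0.39 (adjusted p = 0.119).

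The other genes of this direction were Hspa2 (-1.99), a chaperone of the Hsp70 family, Gipc1 (-1.18), a scaffold for membrane receptors, Rpn2 (-0.96), a subunit of the enzyme that adds sugar chains to proteins, and Prrx1 (-0.87), a homeobox factor of connective tissue. Ctsc (-2.19), the lysosomal protease cathepsin C, Gtdc1 (-1.96), Alox5ap (-1.62), a protein of leukotriene synthesis, and Celf2 (-2.08), a splicing regulator, completed the 12. In 8 of the 12 the groups did not overlap, against 1.9% of all tested genes. The 24 genes were picked by p from these same arrays, so nothing is read from either count. Second probe sets of these genes differed by less: -0.67 for Ctsc, -0.11 for Alox5ap and -1.01 for Celf2, and for Gipc1 they went both ways, at -0.78 and 0.24.

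All 24 genes kept their direction and an unadjusted p under 0.05 when the arrays were median-centred, quantile-normalized, or fitted with both 3' to 5' ratios as covariates, and none was called in those fits. Without treated diabetic replicate 2, 22 of the 24 were called (10 higher, 12 lower), Alox15 and Ptprf being the exceptions. Array weights called 15 of the 24, and the replicate number as a block called 7. All these fits reuse arrays from which the 24 were picked by p. A kept direction and a small p are therefore largely built in, and nothing is read from them.

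**Figure D2:**
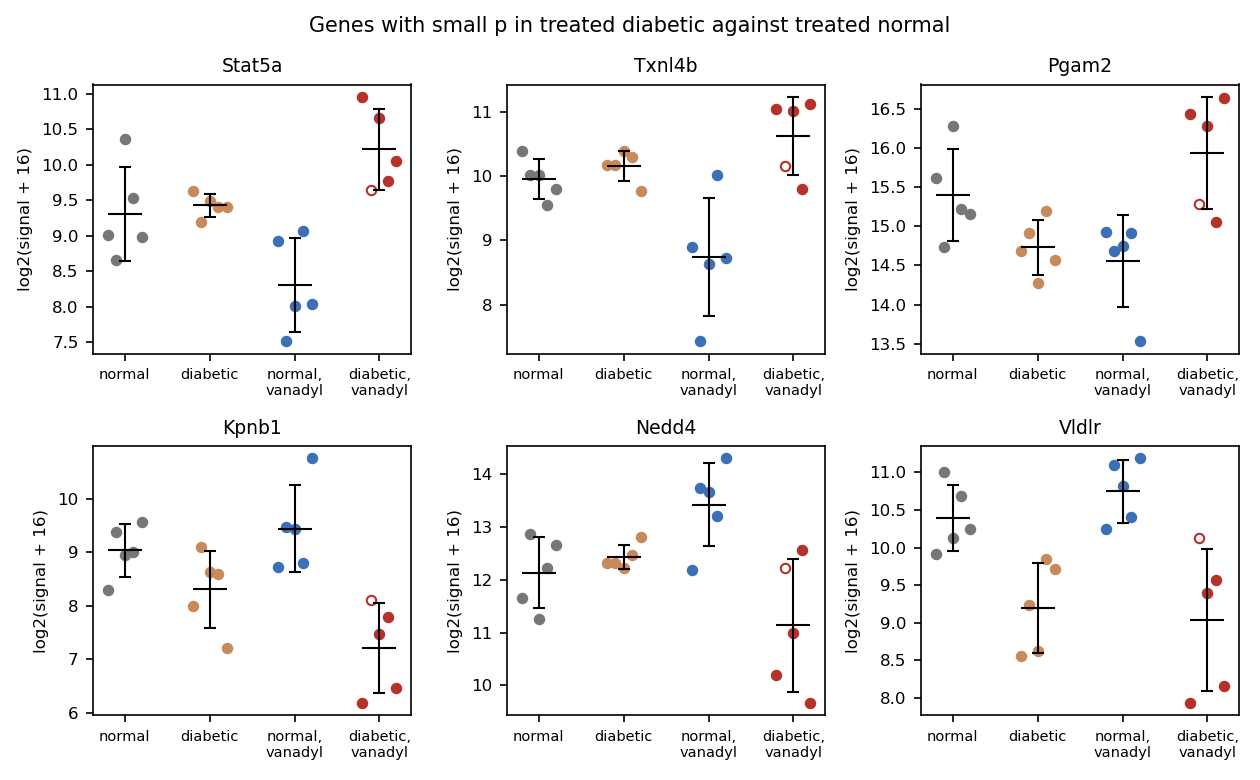
Log2(signal + 16) (vertical axes) of Stat5a, Txnl4b, Pgam2, Kpnb1, Nedd4 and Vldlr on each array of the 4 groups. Points are arrays, bars are the mean and SD over 5 arrays, and the open point is treated diabetic replicate 2, which lies on the treated normal side of the treated diabetic mean in all 6 panels.

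Genes that diabetes had moved in untreated muscle were compared in the treated rats. The treated and untreated comparisons share no array, and only the estimate of spread is common to them. Of the 110 probe sets called in untreated rats, 66 (60%) had the same direction in treated rats, against 58.2% of all 6027 tested, and none was called. The 76 that rose in untreated diabetic muscle had a median difference of 1.73 there and 0.16 in treated rats, and 43 of them (56.6%) were positive in both. For the 34 that fell, the medians were -1.46 and -0.18, and 23 (67.6%) were negative in both. All 110 differed less in treated than in untreated rats, but they were chosen for a large difference in the untreated arrays, so that smaller values elsewhere are partly built into the choice. Across all tested probe sets the 2 differences had a correlation of 0.23 over probe sets, which are not independent. Without the 3 arrays with a log2 Gapdh ratio over 2, chosen after seeing the data, 464 probe sets were called in untreated rats. Of these, 81.5% had the same direction in treated rats. The share over all tested probe sets was not counted in that fit, so the 81.5% has no background beside it. The 3 arrays are treated diabetic replicate 1 and untreated normal replicates 1 and 3. With both 3' to 5' ratios as covariates, 32 probe sets were called in untreated rats, and 53.1% of them had the same direction in treated rats.

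Stress and remodelling genes that stood out in untreated diabetic muscle had overlapping levels in the treated groups. Ankrd1, a stretch- and stress-responsive muscle protein, was at 13.99, 14.15, 14.08, 14.02 and 11.73 in untreated diabetic arrays, where it rose by 3.62 (adjusted p = 0.00162). In treated diabetic arrays it was at 10.82, 10.60, 9.19, 12.23 and 9.98, and in treated normal arrays at 9.65, 10.73, 10.37, 11.02 and 11.94. These 2 groups overlapped over most of their range, and the difference was -0.18 (95% interval -1.29 to 0.93). Cidea, a lipid droplet protein of fat cells and fat-laden tissue, rose by 2.18 in untreated diabetic muscle (adjusted p = 0.00204) and differed by -0.21 in treated rats (interval -0.90 to 0.48). Lox, which crosslinks collagen, rose by 3.11 without treatment (adjusted p = 0.000587) and differed by 0.18 with it (interval -0.68 to 1.04), and its other 3 probe sets differed by -0.70 to -0.17 in treated rats.

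Other genes that rose in untreated diabetic muscle are given with their treated difference first. Lyz2, lysozyme of macrophages and neutrophils, was at 11.41, 12, 11.97, 12.38 and 11.01 in treated diabetic and at 11.83, 11.57, 11.97, 11.70 and 11.97 in treated normal arrays. The difference was -0.05 (interval -0.99 to 0.88), against 2.58 in untreated rats (adjusted p = 0.00505). Spp1, osteopontin, differed by -0.09 (interval -1.16 to 0.97) against 3.08 in untreated rats (adjusted p = 0.00374). Thbs4, a matrix protein of muscle and tendon, differed by -0.12 against 2.19, Prkcb, a protein kinase C, by -0.24 against 2.52 (its second probe set by 0.16 against 0.34), and Coro1a, an actin-binding protein of leukocytes, by 0.40 against 3.38. Coro1a was above the 40th percentile on only 2 of the 10 treated arrays, so its treated difference is close to background. Camk2n1 (0.46 against 2.70), Myh3 (0.40 against 2.57, its other probe sets -0.69 and 0.47 in treated rats), the embryonic myosin heavy chain, S100a4 (1.02 against 2.23) and Spock2 (0.90 against 2.43), a matrix proteoglycan, were positive in both. Spock2 was the one of these 4 whose treated groups did not overlap, at 9.78 to 11.40 against 9.19 to 9.63 (unadjusted p = 0.0547). This was so for 1.26% of all tested genes in this direction, and nothing is read from 1 gene of 4.

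Among the genes that fell in untreated diabetic muscle, Alas1, the first enzyme of heme synthesis, differed by -2.26 there (adjusted p = 0.00838) and by -0.31 in treated rats (interval -1.18 to 0.55). Irs1, the adaptor that passes on the insulin signal, differed by -1.38 (adjusted p = 0.0483) and -0.06 (interval -0.79 to 0.67). Slc2a4, the insulin-responsive glucose transporter GLUT4, differed by -1.16 (adjusted p = 0.045) and by -0.51 in treated rats (interval -1.11 to 0.10). Its signals in the treated groups overlapped, at 12.72 to 14.51 in diabetic and 14.12 to 14.69 in normal arrays, with treated diabetic replicate 5 lowest. Its second probe set differed by -0.42 in untreated rats and by 0.62 in treated rats. Slc41a3 (0.00 in treated rats), Amhr2 (0.17), Smad3 (0.08), Lnpep (-0.13), Phkg1 (-0.22), Acsl6 (-0.28) and Cmss1 (-0.27) lay near 0, and P2rx6 (-0.51), Synpo (-0.67), Fgd4 (-1.13) and Prss1 (-1.12) kept more of their negative difference. Prss1 was the one of these 11 with separate treated groups, at 8.06 to 8.43 against 8.85 to 10.37 (unadjusted p = 0.0117, adjusted p = 0.178). Groups were separate in this direction for 1.9% of all tested genes, and nothing is read from 1 gene of 11.

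**Figure D3:**
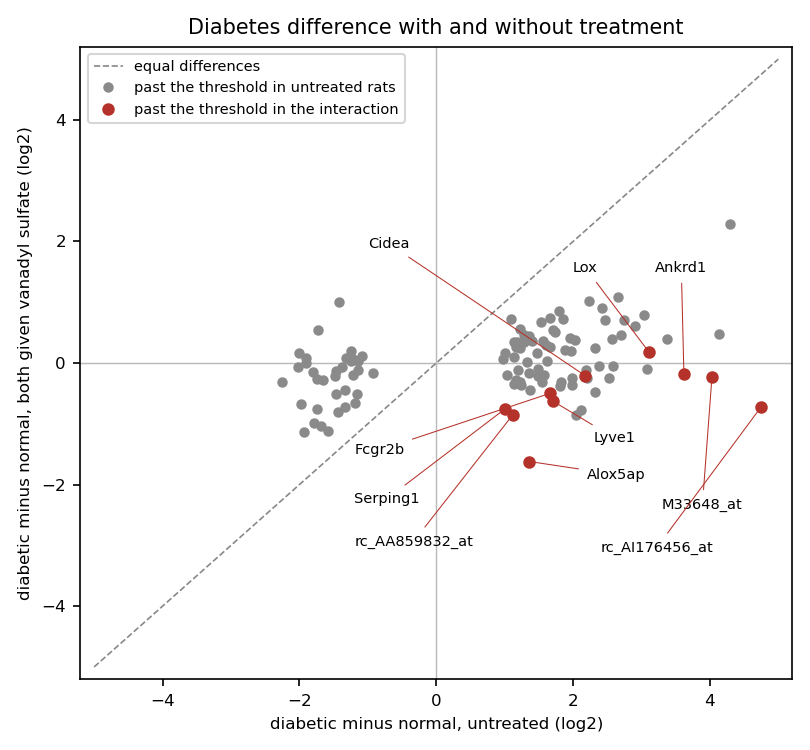
The diabetic minus normal difference of 110 probe sets called in untreated rats, on the log2 scale, in untreated rats (horizontal axis) against rats given vanadyl sulfate (vertical axis). Red points also passed the threshold in the test of the difference between both comparisons (10 probe sets, Alox5ap being outside the 110), the dashed line marks equal differences, and the red points lie at or below 0.18 on the vertical axis.

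Whether the diabetes difference itself differed between treated and untreated rats was tested as an interaction, the treated difference minus the untreated one. It passed the threshold for 10 probe sets (0.166%), all of them with a lower diabetes difference in treated rats. The direction of the calls was not one-sided under every choice: after median centring 3 of 8 were higher, and with array weights 7 of 40 were. Those with a gene name were Ankrd1 (-3.80, adjusted p = 0.0442), Lox (-2.93, adjusted p = 0.0442), Cidea (-2.39, adjusted p = 0.0442), Alox5ap (-2.98, adjusted p = 0.0347), Lyve1 (-2.35, adjusted p = 0.0434), Fcgr2b (-2.16, adjusted p = 0.0315) and Serping1 (-1.75, adjusted p = 0.0442). Lyve1 marks lymphatic vessels and some macrophages, Fcgr2b is an inhibitory antibody receptor, and Serping1 inhibits the first component of complement. These are 0.195% of the 3582 genes tested. The others were M33648_at, rc_AI176456_at and rc_AA859832_at, which carry no gene symbol here.

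M33648_at was at 10.65, 9.05, 10.23, 9.77 and 11.74 in untreated diabetic arrays and between 5.63 and 6.80 in untreated normal arrays. In treated diabetic arrays it was at 6.73, 6, 6.33, 6.11 and 6.73, and in treated normal arrays at 6.03, 6.82, 7.47, 6.43 and 6.31. On none of the 10 treated arrays was it above the 40th percentile, so that it was dim in both treated groups. It therefore met the filter of 5 arrays only through untreated arrays, where it was high in the diabetic group. Its interaction was -4.26 (adjusted p = 0.0019), and it stayed past the threshold in all 32 other settings that tested it. Those settings reuse the same arrays, so they are not separate support. The second unnamed probe set, rc_AI176456_at, had an interaction of -5.47 (adjusted p = 0.0315) and a treated difference of -0.72, which was 0.10 without treated normal replicate 5, an array at 15.42 where its group otherwise reached 11.97.

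Alox5ap was lower in treated diabetic muscle, at 8.41, 9.83, 8.86, 8.46 and 8.07 in diabetic against 9.69, 10.54, 10.55, 10.33 and 10.64 in normal arrays. Treated diabetic replicate 2 alone reached above the lowest treated normal array. It was 1.36 higher in untreated diabetic muscle (adjusted p = 0.0804) and differed by -1.62 in treated rats (adjusted p = 0.13), and its second probe set gave an interaction of -0.68. Serping1 (-0.75, unadjusted p = 0.00716) and rc_AA859832_at (-0.85, unadjusted p = 0.00246) were likewise below 0 in treated rats.

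The count of interaction calls rested on few arrays. It fell to 1 without untreated normal replicate 5, without untreated diabetic replicate 1, 3 or 4, without treated diabetic replicate 3 or without treated normal replicate 3. It was 2 without treated diabetic replicate 1 or treated normal replicate 5, 3 without untreated normal replicate 2, 4 without treated normal replicate 2, 6 without untreated normal replicate 4 and 22 without untreated diabetic replicate 5. Without the 3 arrays with a log2 Gapdh ratio over 2 it was 1. All 10 probe sets kept a negative interaction in every other setting that tested them.

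**Figure D4:**
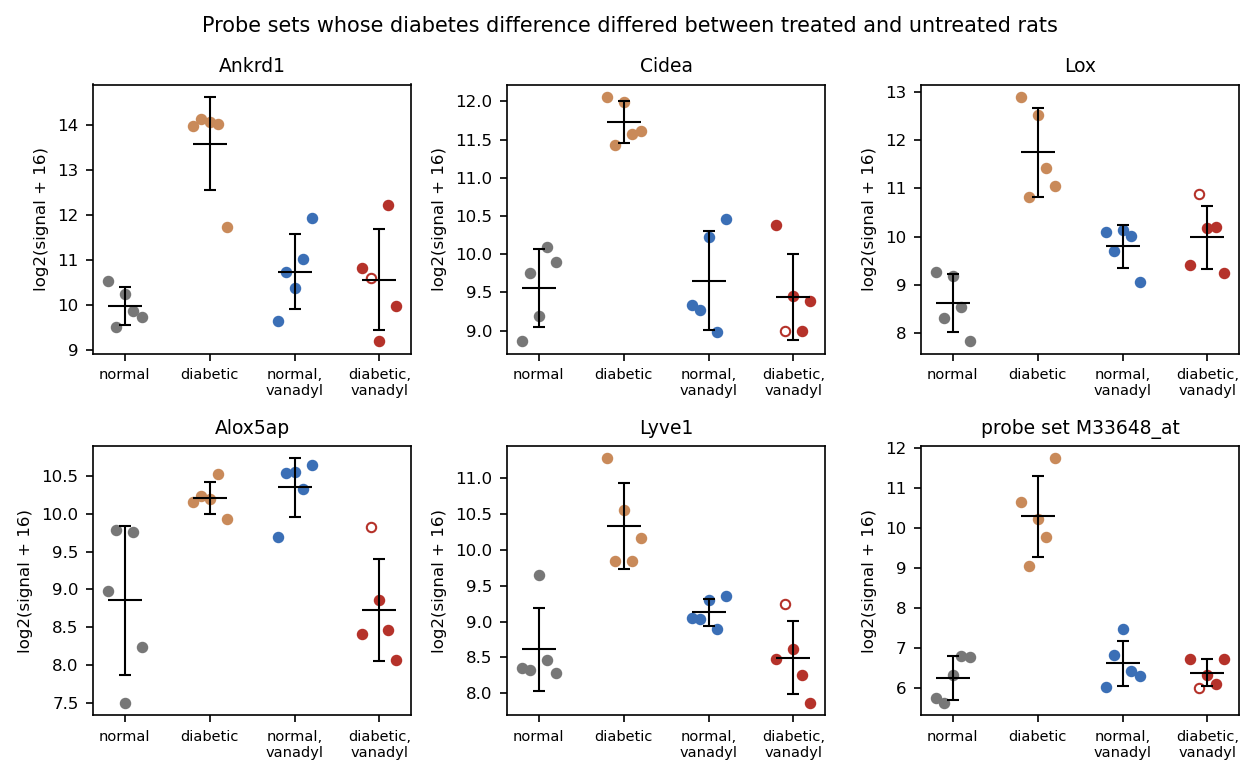
Log2(signal + 16) (vertical axes) of 6 of the 10 probe sets that passed the interaction test, on each array of the 4 groups. Points are arrays, bars are the mean and SD over 5 arrays, and the open point is treated diabetic replicate 2; untreated diabetic arrays are high for Ankrd1, Cidea, Lox, Lyve1 and M33648_at, while the treated groups overlap for these 5.

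In the opposite direction no probe set passed, and the 8 genes with the smallest p are given as values. Ckmt2, the mitochondrial creatine kinase, was at 16.81, 15.87, 16.54, 15.80 and 16.71 in treated diabetic and 15.72, 15.44, 15.51, 16.13 and 13.92 in treated normal arrays. Treated normal replicate 4 reached above 2 of the treated diabetic arrays, and the difference was 1.00 ± 0.35 (adjusted p = 0.174). In untreated rats Ckmt2 fell by 1.42 (adjusted p = 0.045), and the interaction was 2.42 (95% interval 1.38 to 3.45, adjusted p = 0.0513). Ndufb9 and Ndufb2, subunits of respiratory complex I, had interactions of 1.49 and 1.55, Mdh1, cytosolic malate dehydrogenase, 1.67, Slc25a3, the mitochondrial phosphate carrier, 1.26, and Pgam2 2.06. Esrra, a nuclear receptor that drives mitochondrial genes, had 1.10, with treated diabetic arrays at 12.14 to 12.81 and treated normal arrays at 11.34 to 12.05. Mvk, mevalonate kinase of cholesterol synthesis, had 2.02 (adjusted p = 0.0716).

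None of the 491 listed genes tested was called in treated rats (a background of 0%), and 5 were without treated diabetic replicate 2: Pgam2, Fabp3 and Trim63 higher, Tfrc and Hsph1 lower. Over all 3582 tested genes, an unadjusted p under 0.05 was reached by 16.2%, of which 6.31% of all were higher and 9.85% lower, and 41.2% had a positive difference. For the interaction, 5.33% were positive and 7.84% negative at that p. Of 34 tested genes of the respiratory chain and ATP synthase, 28 had a positive treated difference, 14 were higher and 1 was lower at that p, and the median was 0.51 against -0.10 for all genes. In untreated rats 32 of the 34 were negative, with a median of -0.49. The median interaction was 1.08, with 21 genes positive at an unadjusted p under 0.05 and none past the adjusted threshold. Cox6b1, a subunit of cytochrome c oxidase, was at 17.16, 16, 16.10, 16.24 and 16.89 in treated diabetic and 15.95, 15.75, 15.56, 15.09 and 15.21 in treated normal arrays. The groups were separate by 0.05, and the difference was 0.97 ± 0.29 (adjusted p = 0.141), while the second probe set of Cox6b1 differed by 0.07. Atp5f1e (1.16) and Atp5po (1.27), subunits of ATP synthase, were also higher in treated diabetic muscle, with overlapping groups. Second probe sets gave 0.5 for Atp5f1e and -0.55 for Atp5po.

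Contractile genes of fast fibres had a median of 0.69 over 13 tested genes, 6 of them higher and none lower at an unadjusted p under 0.05. Myh4, the fastest myosin heavy chain, was at 17.25, 16.32, 16.95, 16.40 and 17.09 in treated diabetic and 15.90, 15.89, 15.81, 15.98 and 15.63 in treated normal arrays. Its groups were separate (0.96 ± 0.33, adjusted p = 0.159). Pvalb, a calcium buffer of fast fibres, differed by 1.12, Tnni2, fast troponin I, by 0.88, and Myh2 by 0.69, with overlapping groups. The slow fibre list had a median of -0.12 over 8 genes, which was 0.36 without treated diabetic replicate 5, 0.10 without treated diabetic replicate 2 and 0.03 without treated normal replicate 1. All 14 tested general muscle markers lay above the 40th percentile on all 10 treated arrays, and their median was 0.64. Of these markers 10 were positive and 4 negative, Des being one of the negative ones. The mean log2 signal of the 14, centred on treated normal arrays, was -0.28 on treated diabetic replicate 5. It was 0.19 to 1.14 on the other treated diabetic arrays and -0.12 to 0.16 on treated normal arrays. Ribosomal protein genes had a median of 0.42 over 37 genes, 12 higher and 2 lower, with Rpl13a (0.85), Rps23 (0.90) and Rpl36 (0.70) higher and Rpl5 (-1.13) lower. Their untreated median was 0.40.

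These 4 positive medians were smaller after quantile normalization and with the ratios as covariates, and larger after median centring (0.73 for the respiratory chain). After quantile normalization they were 0.13 for the respiratory chain, 0.10 for fast fibres, -0.01 for muscle markers and -0.02 for ribosomal proteins, against 0.08 for all genes. With both 3' to 5' ratios as covariates they were 0.26, 0.46, 0.45 and 0.13, against -0.08, and 5 respiratory chain genes were higher at an unadjusted p under 0.05 in place of 14. The mean respiratory chain log2 signal, centred, was highest on treated diabetic replicate 1 (0.61), the array with the highest Gapdh ratio, and 0.23 to 0.28 on the other 4. In treated normal arrays it was -0.53 to 0.30. The -0.53 was that of treated normal replicate 5, and the other treated normal arrays lay at -0.05 to 0.30. Without treated diabetic replicates 1 and 5 the median was 0.33. On untreated arrays the centred mean spanned -0.07 to 0.75 in normal and -0.39 to 0.09 in diabetic muscle. Its highest value was that of untreated normal replicate 3, which had a log2 Gapdh ratio of 2.91.

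**Figure D5:**
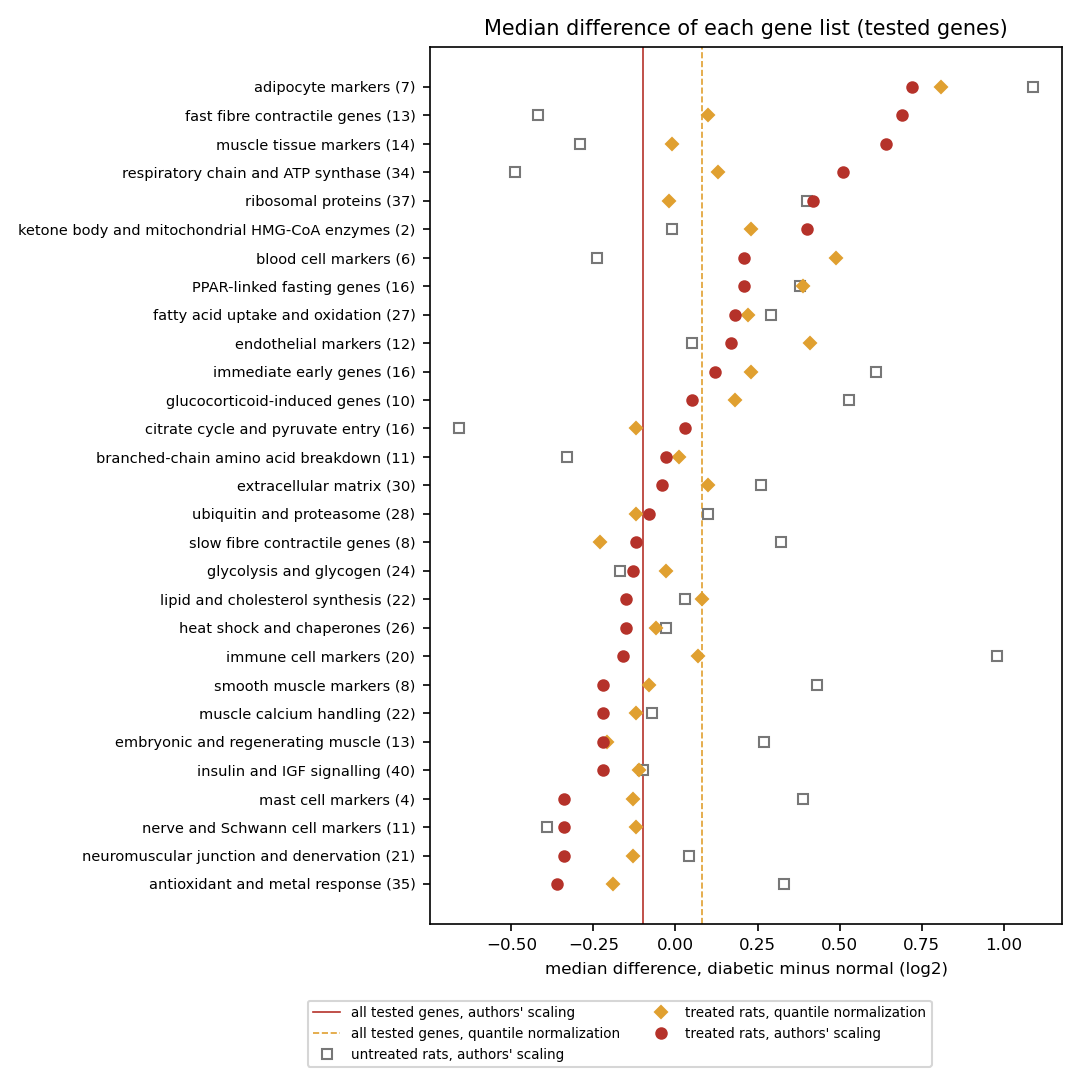
Median diabetic minus normal difference on the log2 scale (horizontal axis) of 29 gene lists (rows, number of tested genes in brackets). Filled circles are treated rats with the authors' scaling, diamonds are treated rats after quantile normalization, squares are untreated rats, and the vertical lines are the medians over all tested genes; the respiratory chain list lies at 0.51 in treated and -0.49 in untreated rats, and at 0.13 in treated rats after quantile normalization.

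Fatty acid and insulin genes gave mixed values. Of 27 tested genes of fatty acid uptake and oxidation, 8 were higher and 2 lower at that unadjusted threshold, with a median of 0.18 (0.29 in untreated rats). Fabp3, the fatty acid carrier of muscle cytosol, was at 16.89, 14.57, 15.77, 15.22 and 16.15 in treated diabetic and 14.81, 14.32, 14.71, 14.93 and 13.07 in treated normal arrays. Treated diabetic replicate 2 fell inside the treated normal range, and the difference was 1.35 ± 0.38 (adjusted p = 0.141). Cd36, a fatty acid translocase, was at 5.91, 6.52, 5.62, 6.09 and 6.65 against 5.60, 9.65, 9.53, 8.82 and 11.08. Treated normal replicate 1 shared the low values of the treated diabetic arrays, which were all under the 40th percentile, and the difference was -2.78 ± 1.00 (adjusted p = 0.178), or -1.29 with both 3' to 5' ratios as covariates. Acsl4, an acyl-CoA synthetase, differed by -1.38 (adjusted p = 0.141), and its second probe set by -0.07.

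Cpt1a, a carnitine palmitoyltransferase of the mitochondrial surface, rose by 1.79 in untreated diabetic muscle (adjusted p = 0.0143) and differed by 0.85 in treated rats (interval 0.11 to 1.59, adjusted p = 0.225). Treated diabetic replicate 5 set its upper end at 11.88, where the other 4 reached 10.11. Slc25a20, the carnitine carrier, differed by 0.65 and Acaa2, the last enzyme of beta-oxidation, by 0.69. The muscle form Cpt1b differed by -0.32, Lpl, lipoprotein lipase, by 0.80 (its other probe sets by -0.21 and -0.76), Ucp3 by 0.38 (its second probe set by -0.56) and Ucp2 by -0.16. Pdk4, the kinase that shuts off pyruvate oxidation in fasting and diabetes, had treated signals of 6.22 to 9 in diabetic and 8.4 to 10.28 in normal arrays, a difference of -1.9 ± 1.16 (interval -4.32 to 0.52). The list of 16 tested genes linked to PPAR and fasting had a median of 0.21. Acat1, of ketone body use, differed by 0.12, and its other probe sets by 0.76 and -0.68.

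Of 40 tested insulin and IGF signalling genes, 2 were higher and 7 lower at that threshold, with a median of -0.22, and 0.00 after median centring. Insr, the insulin receptor, was at 8.48, 8.29, 7.45, 8.35 and 8.61 in treated diabetic and 8.26, 9.36, 9.72, 8.78 and 9.91 in treated normal arrays. Treated normal replicate 1 fell inside the diabetic range, and the difference was -0.97 ± 0.36 (adjusted p = 0.188). Grb14, an adaptor that inhibits the insulin receptor, had separate groups with a difference of -0.65 in treated rats (adjusted p = 0.192), and it fell by 1.19 in untreated diabetic muscle (adjusted p = 0.0159). Map2k2 (0.76, its other probe sets 0.23 and 0.26) was higher at an unadjusted p under 0.05, as was Ptprf. Hk2, hexokinase of muscle, differed by 0.91 (interval -0.07 to 1.89, its second probe set -0.27), Fasn by -0.02 and Scd by -1.5 (interval -3.60 to 0.59).

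Other pathways held single genes with small p. In the citrate cycle list (16 tested, median 0.03, untreated -0.66) Me1, malic enzyme (0.87), Idh2 (0.70) and Mdh1 (0.69) were higher and Pdp1, a phosphatase that switches on pyruvate dehydrogenase, was lower (-1.26). Of these, Me1 and Idh2 had other probe sets of the opposite sign, down to -1.99 and -1.68. In the glycolysis list (24 tested, median -0.13) Eno3 (0.87), Pgk1 (0.74) and Pgm1 (0.67) followed Pgam2, while other probe sets of Pgm1 gave -1.70 and -2.53. In lipid and cholesterol synthesis (22 tested, median -0.15) 3 genes were higher, namely Me1, Mvk (1.02) and Sqle (1.33), and 2 lower, namely Fdft1 (-2.15) and Gpam (-1.55). The other probe sets of Fdft1 gave 0.39, -0.33 and -0.25. That of Gpam gave -0.07, and the lower Gpam probe set was below the 40th percentile on all 10 treated arrays. Branched-chain amino acid enzymes (11 tested, median -0.03) split into Ivd (0.63) and Bckdha (0.63) higher and Aldh6a1 (-1.14) and Acadsb (-2.95) lower. A second probe set of Bckdha gave -0.77, and those of Ivd gave 0.51 and -0.35.

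Of 28 tested ubiquitin and proteasome genes (median -0.08), Trim63, the muscle atrophy ligase MuRF1, was at 15.46, 13.98, 15.60, 15.26 and 16.06 in treated diabetic and 13.89, 13.65, 13.41, 13.91 and 14.49 in treated normal arrays. Treated diabetic replicate 2 fell inside the treated normal range, and the difference was 1.40 ± 0.43 (adjusted p = 0.141, and 0.0447 without that array), with a second probe set at -0.15. Psmb4 (0.96, other probe sets -0.54 and 0.29) was higher, and Ube2d2 (-1.72) and Psmc4 (-0.89) were lower. Heat shock genes (26 tested, median -0.15) divided into 6 higher, with Hspd1 (1.01, its second probe set -0.09) and Hspa4 (0.96), and 7 lower, with Hsph1 (-0.82) and Stip1 (-1.48). Antioxidant and metal response genes (35 tested) had the lowest median of the 29 lists, -0.36, with 1 higher and 6 lower. The neuromuscular, nerve and mast cell lists were close to it, at -0.34 each. Its rank turned on 1 array: without treated diabetic replicate 5 its median was -0.24. Without that array the nerve list was at -0.48, the mast cell list at -0.38 and the neuromuscular list at -0.26. Tfrc, the transferrin receptor, was at 6.51, 11.44, 7.55, 7.39 and 5.07 in treated diabetic and 10.88, 10.74, 10.50, 11.77 and 9.32 in treated normal arrays. Treated diabetic replicate 2 alone was at the normal level, and the difference was -3.05 ± 0.88 (adjusted p = 0.141), or -4.02 without it (adjusted p = 0.0234). Gstm5 (-1.62), Sod3 (-1.49), the extracellular superoxide dismutase, and Prdx3 (-0.59, its second probe set 0.12) were also lower.

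Neuromuscular and denervation genes (21 tested, median -0.34) had 4 lower and none higher, namely Gadd45a (-1.3), Dlg1 (-2.18), Myod1 (-0.75) and Myf6 (-0.70). The other probe sets of Gadd45a gave -0.63, 1.77 and -0.05. Among embryonic and regenerating muscle genes (13 tested, median -0.22, but 0.30 without treated diabetic replicate 5 and 0.01 without treated normal replicate 5), Ncam1 differed by -0.51, Myl4 by 0.62 and Fhl2 by -0.77. Second probe sets gave 0.29 for Ncam1 and -0.38 for Myl4. Calcium handling (22 tested, median -0.22) had Ppp3cb (-1.3) and Cacng1 (-1.35) lower, and Camk2a at -1.46 (its second probe set 0). Among slow fibre genes Tpm3 differed by -0.32 (other probe sets -0.38 and 2.04), Atp2a2 by -0.34, Casq2 by -0.42 and Myl3 by 0.23. Extracellular matrix (30 tested, median -0.04) had Col1a1 (1.13, other probe sets -0.52 to -0.10) higher and Serpinh1 (-1.62), the collagen chaperone, lower, with Timp3 at -0.57. Glucocorticoid-induced genes (10 tested, median 0.05) had Sgk1 (-0.95) and Pik3r1 (-1.21) lower and Nfkbia at 0.51 (its second probe set -0.93), and immediate early genes (16 tested, median 0.12) had Egr1 at 0.59 (other probe sets -0.03 to 0.31), Egr2 at 0.50, Atf3 at 0.63 and Btg1 at -0.40. "Higher" and "lower" in these lists mean an unadjusted p under 0.05 only. The medians of the glycolysis, citrate cycle, ubiquitin, extracellular matrix, immediate early and branched-chain amino acid lists lay so near 0 that leaving out 1 treated array turned their sign, to values between -0.09 and 0.12. The smooth muscle median turned from -0.22 to 0.01 without treated diabetic replicate 5.

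Markers of other cell types were compared because whole muscle holds several. In bulk RNA, fewer cells of a type and less RNA per cell cannot be told apart. Of 20 tested immune cell markers, none was higher and 2 lower in treated rats (Cd14 at -0.65, C1qb at -0.91), and the median was -0.16 against 0.98 in untreated rats. The median interaction was -1.36, with 12 markers negative at an unadjusted p under 0.05, and only Fcgr2b past the adjusted threshold. Their signal, summed per array, spanned 28829 to 44733 with diabetes and 32840 to 47350 without it in treated rats. The untreated diabetic arrays spanned 46158 to 149648 and the untreated normal ones 28253 to 34616. Itgam, Csf1r, Cd3d, Ccl3 and Ccl5 were under the 40th percentile on all 10 treated arrays. Coro1a, Cd8a, Ptprc and Aif1 were above it on 2, 2, 3 and 4 of these arrays. They passed the filter of 5 arrays only with the help of untreated arrays, and they are among the 20 tested. C1qb, a complement component made by macrophages, was at 9.50 on treated diabetic replicate 5 and at 11.04 to 12.85 on the other 9, and its second probe set differed by -2.44. RT1-Bb, an antigen-presenting protein, differed by -0.92, and Lgals3 by -0.22.

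Adipocyte markers had a median of 0.72 in treated and 1.09 in untreated rats over 7 tested genes. In treated rats 4 of the 7 were positive and 3 negative. Lipe, hormone-sensitive lipase (0.73), and Lpl (0.80) were higher at an unadjusted p under 0.05, and Cfd was at 0.88. Pparg was at -0.61, and Cidea, given above, was also negative. Other probe sets gave 0.15 for Lipe and -0.21 and -0.76 for Lpl. The summed signal of the adipocyte markers spanned 33134 to 62325 with diabetes and 26367 to 39745 without it. Plin1, which coats fat droplets, was under the 40th percentile on all 10 treated arrays. The median was -0.02 with both 3' to 5' ratios as covariates. Of 12 tested endothelial markers (median 0.17), 7 were positive, none of them at an unadjusted p under 0.05, with Kdr at 0.83. Cav1 (-2.82), Pecam1 (-1.59) and Icam1 (-1.16, its second probe set -0.23) were lower. All 4 tested mast cell markers were negative (Cpa3 -1, Tpsb2 -0.57, Cma1 -0.12, Tpsab1 -0.10), while Mcpt4, Mcpt9, Fcer1a and Hdc were under the 40th percentile on every treated array. Blood cell markers (6 tested, median 0.21) included Hbb at 1.03, Hbb-b1 at 0.87, Alas2 at 0.65 and Slc4a1 at -0.23 (its second probe set 0.15). Smooth muscle (8 tested, median -0.22) included Pdgfrb at -0.70 and Myl9 at -1.18 (its second probe set -0.23). It also held Des, which is on the general muscle list too, at -0.86, and Tagln at 0.35 (its second probe set -1.23). Nerve and Schwann cell markers (11 tested, median -0.34) included Gap43 at -0.65, S100b at 1.80, Pmp22 at -0.53 and Nefh at -0.82. Pparg, Pdgfrb and Nefh were above the 40th percentile on 4, 4 and 2 of the 10 treated arrays, so their values are close to background. What part the other cell types had in the differences of the treated groups was not tested.

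Actb, which was always to be reported since its mRNA is often used as a reference, was at 12.04, 15.07, 13.66, 13.73 and 9.74 in treated diabetic and 14.74, 14.55, 14.33, 14.77 and 14.11 in treated normal arrays. Treated diabetic replicates 1 and 5 were low and replicate 2 was the highest of all 10, and the difference was -1.65 ± 0.64 (adjusted p = 0.198).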

How the data were processed

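The 20 arrays were 1-colour Affymetrix arrays. Each probe set has 1 deposited intensity on each array, on a linear scale and without detection calls. MAS5 is the tool that the submitters' processing notes name, with no version. The trimmed mean signal (2% cut at each end) was 2503.4 to 2506.5 on every array, so the authors' scaling was kept. Of 8799 probe sets, 59 control probe sets were left out, and 6027 above their array's 40th percentile on at least 5 of 20 arrays were tested as log2(signal + 16). Group means were fitted to all 20 arrays with limma 3.58.1 (R 4.3.3, lmFit and eBayes), two-sided, with Benjamini-Hochberg adjustment over the 6027. The 5 arrays per group limit the precision. Median signals of the treated arrays ran from 462 to 648. The fits were tested on simulated data. The platform annotation gave 1 symbol for 7018 probe sets, several for 308 and none for 1473. The probe set with the highest mean stood for a gene (3582 genes), and symbols were looked up in RefSeq.

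Genes were named by rule: the 12 with the smallest p in each direction of the treated comparison (none passed 0.05), the 8 in each direction of the interaction, the 12 largest changes each way in untreated rats, 2 to 4 members of each of 29 gene lists, and a fixed set of fuel, insulin, stress and reference genes. The 10 interaction calls, Sqle and the remaining marker genes given at background were named after their values were seen. The comparison, lists and genes were chosen with earlier results of these data known. Alternatives were pseudocounts of 1 and 256, no filter, a 60th percentile filter, quantile normalization, median centring, a robust trended fit, array weights, the replicate number as a block, 3' to 5' ratios as covariates, the 10 treated arrays alone, the mean over a gene's probe sets, and each array left out.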

Additional observations from a re-analysis of the deposited data

Results flagged for a closer look

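Of 158 groups of 5 treated arrays examined for the named genes, 11 held an array far from the other 4, where chance flags about 1 in 20. Of these 11, 1 was treated diabetic replicate 1 and 1 was treated diabetic replicate 5. In treated normal arrays these were Pgam2 in replicate 5 (13.53, nearest 14.68), Fgd4 in replicate 5 (7.93, nearest 8.90), rc_AI176456_at in replicate 5 (15.42, nearest 11.97) and Prkcb in replicate 4 (6.75, nearest 8.23). In treated diabetic arrays they were Ndufb2 in replicate 1 (16.89, nearest 16.12), Hspa2 in replicate 2 (7.73, nearest 5.84), Smad3 in replicate 3 (7.98, nearest 8.65), Insr in replicate 3 (7.45, nearest 8.29), Spock2 in replicate 4 (11.40, nearest 10.18), Cmss1 in replicate 4 (8.69, nearest 10.07) and Cpt1a in replicate 5 (11.88, nearest 10.11). All are log2 signals.

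For 10 probe sets the diabetes difference differed between treated and untreated rats by the interaction test: M33648_at (-4.26), Cidea (-2.39), Serping1 (-1.75), rc_AA859832_at (-1.98), rc_AI176456_at (-5.47), Lyve1 (-2.35), Lox (-2.93), Ankrd1 (-3.80), Alox5ap (-2.98) and Fcgr2b (-2.16), on the log2 scale.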

How the results depend on the processing

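The count of probe sets called between treated diabetic and treated normal muscle (0) was 38 with array weights (8 higher, 30 lower), 2 when the 3 arrays with a log2 Gapdh ratio over 2 were dropped, and 0 to 109 when single arrays were left out. Apart from the replicate block below, it was 0 in the other alternatives, which include both 3' to 5' covariates. Listed genes called ranged from 0 to 5 when single arrays were left out. The interaction count (10) was 1 with no filter, 1 after quantile normalization, 40 with array weights, 3 with the Gapdh covariate, 1 with both covariates, 6 without treated diabetic arrays 1 and 5, 1 when those 3 arrays were dropped, and 1 to 22 over single arrays left out. M33648_at was called in each of these that tested it.

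The count in untreated rats (110) was 62 with no filter, 515 with array weights, 282 with the Gapdh covariate, 32 with both covariates, 189 without treated diabetic arrays 1 and 5, 464 without the 3 arrays, and 24 to 247 over single arrays left out. The same-direction share of these probe sets (60%) was 72.7% after quantile normalization, 53.1% with both covariates, 81.5% without the 3 arrays, and 55% to 74.3% over single arrays. The share over all tested probe sets was not counted in these fits. The Gapdh difference (1.20) ran from 0.56 to 1.51 and that of beta-actin (0.89) from 0.73 to 1.15 when single treated arrays were left out. Leaving out these sets of arrays was chosen after seeing the data. The cause of these shifts was not tested.

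Whether the replicate number pairs the samples is not settled by these values. A correlation measured for same-numbered treated arrays was -0.10 to 0.15, with 2 of 5 over 0.1. It is not that of the log2 signals themselves, which was 0.73 to 0.95 between treated arrays. Only for replicate 2 was the same-numbered value above those of other numbers (0.15 against 0.04). With the number as a replicate block, the treated count was 16 (2 higher, 14 lower) and the interaction count 6.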
